A study of Mus musculus with 6 samples.

Results

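Egr1, Egr2 and Egr3 encode early growth response zinc finger transcription factors, and Nr4a1, Nr4a2 and Nr4a3 encode orphan nuclear receptors that bind DNA without a known hormone. They are described here in mature CD8 thymocytes that by genotype lack Tcf1 and Lef1, or Tcf1 alone. These 6 genes were taken by name from the 16383 genes of the expression table, and 6 of 6 passed the expression filter, which kept 6761 genes. In T cells the Egr and Nr4a genes are transcribed within minutes to hours of antigen receptor engagement. MAP kinase signalling through the SRF partner Elk proteins, calcium and calcineurin signalling through NFAT and MEF2, and CREB family proteins at cyclic AMP response elements (CRE) all feed into their promoters. During selection in the thymus Egr proteins promote survival and maturation and induce Id3 and their own corepressor Nab2, while Nr4a1 (Nur77) and Nr4a3 (Nor1) are linked to the death of strongly self-reactive cells. The level of Nr4a1 is widely used as a gauge of recent T cell receptor signalling.

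Total RNA was sequenced from sorted thymocytes with a high surface level of TCRβ that were positive for CD8 and negative for CD69 and CD24. The libraries fall into 3 genotypes of 2. The DKO group is Tcf1-/-Lef1-/-, the Tcf1 KO group is Tcf1-/-, and the WT group is wild type. Per the design text, both factors were removed with CD4-Cre, which is active from the CD4+CD8+ thymocyte stage and in all later αβ T cells, CD4 lineage cells included. Values are FPKM, fragment numbers per kilobase of transcript after scaling for sequencing depth, so levels of different genes can be set side by side per length. Means are given with their SD (n = 2). Changes are differences of log2(FPKM + 1) with the standard error from limma (SE), and a gene was called when its Benjamini-Hochberg adjusted p over all 6761 genes was below 0.05. The log2(FPKM + 1) scale understates changes of genes with low FPKM. Whether replicate libraries stem from different mice is not stated, and the p-values therefore cover the spread between these libraries, which may be technical. In bulk RNA, fewer cells that transcribe a gene and less of its RNA per cell cannot be told apart.

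The spacing of low FPKM values corresponded to roughly 41250000 to 48000000 fragments per library, and libraries of 1 genotype correlated at r = 0.986 in DKO, 0.989 in Tcf1 KO and 0.992 in WT across genes. Lef1 had 130.9 and 130.2 FPKM in DKO, 308.7 and 311.5 FPKM in Tcf1 KO, and 316.1 and 281.9 FPKM in WT, and was lower in DKO than in WT by limma (adjusted p = 0.000157). The DKO mean of Lef1 was 43.7% of the WT mean, and the source of this remaining RNA was not tested. Tcf7, which encodes Tcf1, is not analysed here. The T cell and CD8 markers of the labelled cell type were high, with Cd8a between 516 and 656 FPKM and Cd3e between 584 and 795 FPKM over the 6 libraries. Of the 7 mature CD8 thymocyte markers, however, 3 rose and 2 fell in DKO against WT. Ccr7, a receptor that rises with thymocyte maturation, had 55.48 and 75.38 FPKM in DKO, 195.3 and 218.6 FPKM in Tcf1 KO, and 214.7 and 208.4 FPKM in WT (-1.69 ± 0.14, limma adjusted p = 0.000472). Klf2, a factor for thymic exit, had 572.2 and 527.4 FPKM in DKO, 219.4 and 240.6 FPKM in Tcf1 KO, and 242.0 and 252.9 FPKM in WT (1.15 ± 0.07, adjusted p = 0.000194). Among the CD3 genes, Cd3e (0.35 ± 0.06, adjusted p = 0.00616) and Cd3g (0.499 ± 0.06, adjusted p = 0.00171) also rose, and Cd3d changed by -0.19 ± 0.05 (adjusted p = 0.0275), a call lost without DKO replicate 2 (0.0820), Tcf1 KO replicate 1 (0.0521), Tcf1 KO replicate 2 (0.0524), WT replicate 1 (0.0738) or WT replicate 2 (0.157) and with median scaling (0.114). The Cd3d call was also lost in limma with quantile scaling (adjusted p = 0.0528), no variance trend (0.0556), no filter on low values (0.0648) or only the 4 libraries compared (0.0521). Cd4, the coreceptor of helper T cells, was at 128.95 and 63.72 FPKM in DKO, 15.06 and 6.27 FPKM in Tcf1 KO, and 1.41 and 0.65 FPKM in WT, and was higher in DKO than in WT cells of the same gate (limma adjusted p = 0.000516).

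The promoter sequences show which of these inputs have matching letters in front of each gene. Windows of 250 bases that end at the base before the start site are printed from RefSeq (assembly GRCm38.p6) for Egr2, Nr4a1 and Nr4a2, on the strand of the gene, and for Nr4a3 the 23 bases that hold 2 of its 4 matches to the CRE core. Capitals mark motif matches. Egr1 and Egr3 are named only.
Egr2, chr10:67537619-67537868, plus strand: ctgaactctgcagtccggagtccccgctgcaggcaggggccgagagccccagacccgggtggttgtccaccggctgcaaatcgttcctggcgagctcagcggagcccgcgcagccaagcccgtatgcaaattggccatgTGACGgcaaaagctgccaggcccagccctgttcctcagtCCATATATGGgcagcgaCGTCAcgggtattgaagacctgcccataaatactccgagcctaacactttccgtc
Nr4a1, chr15:101266596-101266845, plus strand: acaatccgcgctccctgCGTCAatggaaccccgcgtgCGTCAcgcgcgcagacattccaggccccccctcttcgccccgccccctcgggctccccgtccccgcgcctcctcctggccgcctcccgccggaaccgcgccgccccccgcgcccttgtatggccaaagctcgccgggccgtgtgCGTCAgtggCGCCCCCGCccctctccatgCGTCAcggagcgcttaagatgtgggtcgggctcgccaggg
Nr4a2, chr2:57124004-57124253, minus strand: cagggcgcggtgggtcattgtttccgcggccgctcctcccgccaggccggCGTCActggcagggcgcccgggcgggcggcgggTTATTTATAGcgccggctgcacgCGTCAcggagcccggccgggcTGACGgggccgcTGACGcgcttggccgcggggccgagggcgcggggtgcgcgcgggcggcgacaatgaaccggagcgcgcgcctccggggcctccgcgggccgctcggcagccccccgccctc
Nr4a3, chr4:48045074-48045096, plus strand: TGACGtagcgtcccatgtCGTCA

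The CRE core, searched as TGACG on either strand, was the match shared by the 4 windows. Nr4a1 held 4 cores, which began 233, 213, 69 and 40 bases upstream of the start site. Nr4a2 also held 4, beginning 200, 144, 123 and 111 bases upstream, and Nr4a3 held 4 in its full window, beginning 231, 213, 205 and 147 bases upstream. Of 32851 mouse promoter windows of the same length, 0.137% held at least 4 such cores, and 17.8% held at least 1. Egr2 held 2 cores, 111 and 55 bases upstream, and 3.9% of all windows held at least 2. Between them, 72 bases upstream of the Egr2 start, lay a CArG box, the site that SRF binds, which 1.47% of windows held. Nr4a2 had a MEF2 site 167 bases upstream, which 2.92% of windows held. Nr4a1 had a match to an EGR site, searched on both strands as GCGTGGGCG or GCGGGGGCG, 60 bases upstream, and 3.06% of windows held one. The full CRE (TGACGTCA), the Nr4a monomer site (AAAGGTCA) and a TCF/LEF site (CTTTGAA or CTTTGAT) were searched on both strands and had no match in the 4 windows, against 1.55%, 1.34% and 7.48% of all windows. No 2 matches of different motifs in these windows overlapped. A match is a description of letters and was not measured as a bound site. A motif held by 7.48% of windows or fewer is likely to be absent from any 4 windows. Sequence outside the windows was not searched, and binding of Tcf1 or Lef1 was not tested.

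DKO cells were compared with WT cells to see how the loss of both factors bears on these genes. In DKO, 4 of the 6 genes fell, namely Egr1, Nr4a1, Nr4a2 and Nr4a3, and none rose, and the median change over the 6 was -0.93 on the log2(FPKM + 1) scale. Of all tested genes, 27.8% fell by the same call, with a median change of -0.03. All 6 genes were lower in both DKO libraries than in both WT libraries, which was so for 41.4% of tested genes. With so many genes changed, a fall by itself does not set these genes apart. Without adjustment, 6 of 6 had p below 0.05 in limma, and 3345 of the 6761 tested genes passed even the adjusted threshold.

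Nr4a3 had the largest change of the 6 on this scale. Its level was 1.72 and 2.27 FPKM in DKO, 5.59 and 4.66 FPKM in Tcf1 KO, and 7.12 and 6.29 FPKM in WT. The groups did not overlap, DKO being lowest and WT highest. The DKO mean was 1.995 ± 0.389 FPKM, 29.8% of the WT mean of 6.71 ± 0.587 FPKM (SD, n = 2 each). In limma, Nr4a3 changed by -1.37 ± 0.13 (SE) in DKO against WT (Benjamini-Hochberg adjusted p = 0.000769) and by -1.03 ± 0.13 in DKO against Tcf1 KO (adjusted p = 0.00313). In Tcf1 KO against WT it changed by -0.33 ± 0.13, which was not called (adjusted p = 0.237).

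Nr4a1, the most abundant of the Nr4a genes, had 14.2 and 10.04 FPKM in DKO, 20.98 and 17.1 FPKM in Tcf1 KO, and 29.64 and 29.69 FPKM in WT. The 3 genotypes again lay apart in the same order, and the 2 WT libraries were nearly equal. The means were 12.1 ± 2.94 FPKM in DKO, 19.0 ± 2.74 FPKM in Tcf1 KO and 29.7 ± 0.0354 FPKM in WT. Nr4a1 fell by 1.24 ± 0.17 (SE) on the log2 scale in DKO against WT (limma adjusted p = 0.00223). DKO against Tcf1 KO gave -0.62 ± 0.17 (adjusted p = 0.0330) and Tcf1 KO against WT gave -0.62 ± 0.17 as well and was not called (adjusted p = 0.114). With only the 4 libraries compared in the fit, DKO against Tcf1 KO was not called either (limma adjusted p = 0.0693). The call between DKO and Tcf1 KO was lost in limma without DKO replicate 2 (-0.39, adjusted p = 0.0692), Tcf1 KO replicate 1 (-0.48, 0.147), Tcf1 KO replicate 2 (0.0539), WT replicate 1 (0.0688) or WT replicate 2 (0.0687), with median scaling (0.0523) and with no filter on low values (0.0791).

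Nr4a2 (Nurr1), the receptor best known from dopamine neurons, was close to the 1 FPKM filter. It had 0.36 and 0.76 FPKM in DKO, 1.45 and 1.34 FPKM in Tcf1 KO, and 1.53 and 1.54 FPKM in WT. DKO stood below both other genotypes, which differed little. Nr4a2 changed by -0.71 ± 0.15 (SE) in DKO against WT (limma adjusted p = 0.0114), by -0.63 ± 0.15 in DKO against Tcf1 KO (adjusted p = 0.0229) and by -0.08 ± 0.15 in Tcf1 KO against WT (adjusted p = 0.818). With a pseudocount of 0.1 in place of 1, the first of these became -1.38. By mean FPKM, Nr4a2 in DKO was at 36.5% of WT, and Nr4a1 at 40.9%. With only the 4 libraries compared in the fit, DKO against Tcf1 KO was not called (limma adjusted p = 0.0551). The call against WT was lost in limma without WT replicate 1 (adjusted p = 0.0601) or WT replicate 2 (0.0648). The call against Tcf1 KO was lost without DKO replicate 1 (0.0525), Tcf1 KO replicate 1 (0.0936), Tcf1 KO replicate 2 (0.0740), WT replicate 1 (0.0540) or WT replicate 2 (0.0540).

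**Figure D1:**
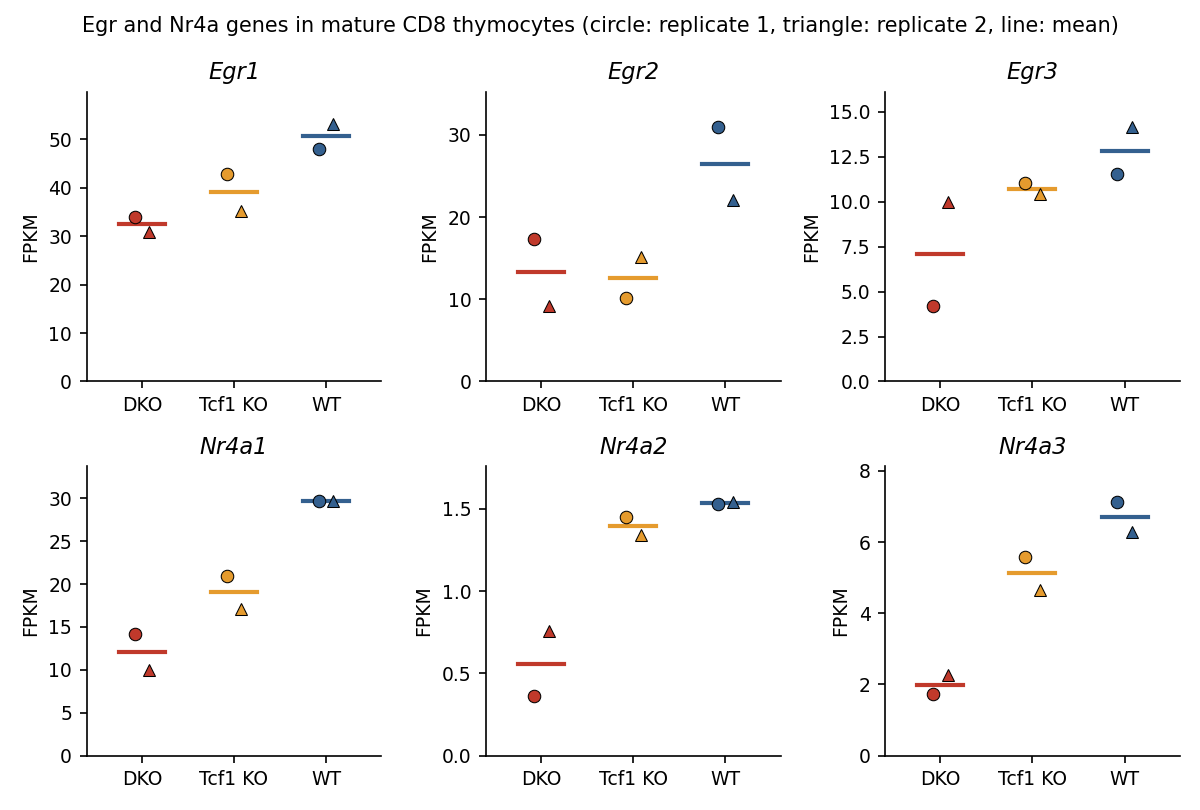
FPKM of each Egr and Nr4a gene in the DKO, Tcf1 KO and WT libraries, 1 panel per gene with its own axis from 0; circles are replicate 1, triangles replicate 2 and lines the group means. DKO lies below Tcf1 KO and Tcf1 KO below WT in every library for all genes but Egr2, whose DKO and Tcf1 KO libraries (17.33 and 9.17 FPKM, and 10.1 and 15.16 FPKM) overlap.

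Egr1, the archetypal immediate early factor of the family, was the most abundant of the 6 genes. It had 33.97 and 30.87 FPKM in DKO, 42.79 and 35.29 FPKM in Tcf1 KO, and 48.08 and 53.24 FPKM in WT. The 3 groups did not overlap, although the higher DKO and the lower Tcf1 KO library were near each other. The DKO mean of 32.4 ± 2.19 FPKM was 64.0% of the WT mean of 50.7 ± 3.65 FPKM. Egr1 fell by 0.63 ± 0.11 (SE) on the log2 scale in DKO against WT (limma adjusted p = 0.00537). The difference of -0.37 ± 0.11 in Tcf1 KO against WT (adjusted p = 0.128) and that of -0.26 ± 0.11 in DKO against Tcf1 KO (adjusted p = 0.117) were not called.

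Egr2, which acts in thymocyte selection and, with Egr3, in T cell anergy, had 17.33 and 9.17 FPKM in DKO, 10.1 and 15.16 FPKM in Tcf1 KO, and 30.92 and 22.06 FPKM in WT. Both mutant genotypes lay below WT and overlapped each other, so Egr2 alone lacked the stepwise order. Its changes against WT were -0.99 ± 0.33 (SE) in DKO (limma adjusted p = 0.0528) and -1.02 ± 0.33 in Tcf1 KO (adjusted p = 0.160), and neither was called. DKO against Tcf1 KO gave 0.03 ± 0.33, with a 95% interval of -0.80 to 0.85 (adjusted p = 0.955), so a difference of that size in either direction is within the error. Without DKO replicate 1, Egr2 was called in DKO against WT (-1.42, adjusted p = 0.0164), and without DKO replicate 2 the change was -0.57. The sign of DKO against Tcf1 KO turned without DKO replicate 1 (-0.40) or Tcf1 KO replicate 1 (-0.24).

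Egr3, which supports the survival and expansion of thymocytes at earlier stages, had 4.2 and 9.98 FPKM in DKO, 11.03 and 10.41 FPKM in Tcf1 KO, and 11.55 and 14.15 FPKM in WT. The groups did not overlap, but DKO replicate 2 was almost at the level of Tcf1 KO. The change in DKO against WT was -0.87 ± 0.34 (SE) and was not called (limma adjusted p = 0.0785). Without DKO replicate 2 it was -1.41 (adjusted p = 0.00205), and DKO against Tcf1 KO became -1.17 (adjusted p = 0.00531) in place of -0.63 ± 0.34 (adjusted p = 0.192). Without DKO replicate 1, the change against WT was -0.33. Tcf1 KO against WT gave -0.24 ± 0.34 (adjusted p = 0.762). The DKO libraries thus ranked in opposite order for Egr2, which was higher in replicate 1, and Egr3, which was higher in replicate 2.

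**Figure D2:**
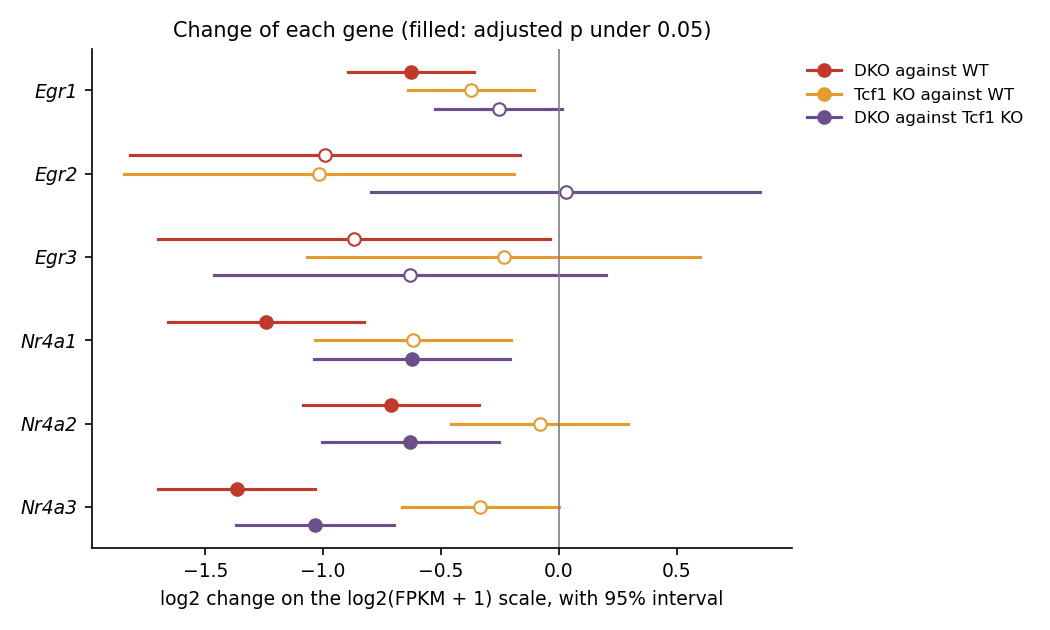
Change of each Egr and Nr4a gene on the log2(FPKM + 1) scale in the 3 comparisons, as points with 95% intervals from limma; filled points have an adjusted p below 0.05. On this scale Nr4a3 (-1.37) and Nr4a1 (-1.24) changed most in DKO against WT, and the intervals of Egr2 and Egr3 are the widest.

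Tcf1 KO cells were compared with WT cells to see how the loss of Tcf1 alone bears on these genes, and with DKO cells for what the further loss of Lef1 adds. In Tcf1 KO against WT none of the 6 genes was called by limma, where 2.09% of all tested genes were. An unadjusted p below 0.05 was found for 3 of the 6 (Egr1, Egr2 and Nr4a1). The share of all tested genes at that unadjusted threshold was not counted. The 3 of 6 therefore has no background here, since the 2.09% belongs to the stricter adjusted threshold. All 6 were lower in both Tcf1 KO libraries than in both WT libraries, which was so for 30% of tested genes, and their median change was -0.35, against -0.01 over all tested genes. In DKO against Tcf1 KO, the 3 Nr4a genes fell, and 22.6% of all tested genes did. Of the 6 genes, 5 were lower in both DKO libraries than in both Tcf1 KO libraries, as were 37.9% of all tested genes. The median change of the 6 there was -0.63, against -0.03 over all tested genes. Leaving out Tcf1 KO replicate 1, Tcf1 KO replicate 2, WT replicate 1 or WT replicate 2 left Nr4a3 as the 1 called gene in this comparison. In 5 of the 6 genes every DKO library was below every Tcf1 KO library, and every Tcf1 KO library below every WT library, an order held by 18.2% of tested genes. The comparisons share libraries, so their changes are not independent of each other.

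Summed by family, the Egr genes had 55.5 and 50.02 FPKM in DKO, 63.9 and 60.9 FPKM in Tcf1 KO, and 90.6 and 89.5 FPKM in WT. The Nr4a genes summed to 16.3 and 13.1 FPKM in DKO, 28.0 and 23.1 FPKM in Tcf1 KO, and 38.3 and 37.5 FPKM in WT. For both sums the 3 genotypes lay apart in the same order. The opposite deviations of Egr2 and Egr3 in the DKO libraries partly cancelled in the Egr sum. Egr1 made up between 53.1% and 66.9% of the Egr sum in the 6 libraries, and Nr4a1 between 74.0% and 87.2% of the Nr4a sum. By mean FPKM the genes ranked Egr1, Egr2, Nr4a1, Egr3, Nr4a3 and Nr4a2 in DKO, but in Tcf1 KO and WT Nr4a1 stood above Egr2. Egr2 and Nr4a1 did not differ beyond their spread in DKO (13.3 ± 5.77 and 12.1 ± 2.94 FPKM) or in WT (26.5 ± 6.26 and 29.7 ± 0.0354 FPKM). In WT, Egr1 stood above 93.9% and 94.6% of all listed genes and Nr4a2 above 62.5% and 62.6%.

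**Figure D3:**
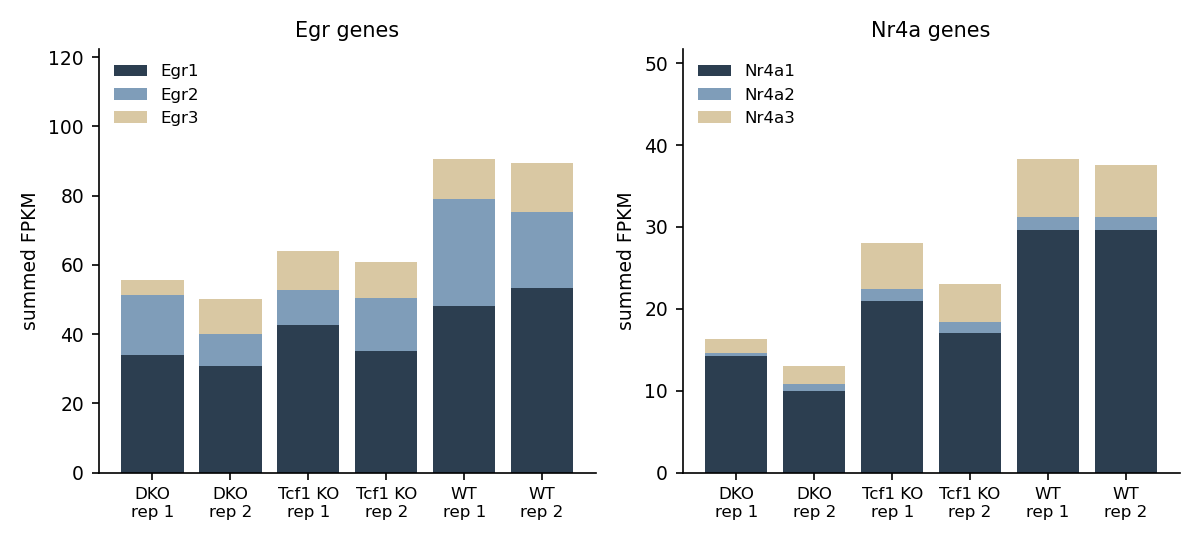
Summed FPKM of the Egr genes (left) and Nr4a genes (right) in each library, stacked by gene from 0. Nr4a sums are 16.3 and 13.1 FPKM in DKO, 28.0 and 23.1 FPKM in Tcf1 KO, and 38.3 and 37.5 FPKM in WT, and Nr4a1 makes up most of each.

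The closest companions of each gene over the 6 libraries were sought among 1004 tested genes whose highest and lowest library differed by at least 1 on the log2(FPKM + 1) scale. These correlations describe 6 libraries of 3 genotypes and rest largely on the differences between genotypes. Egr2 was followed most closely by Ado (Pearson r = 0.979), which encodes cysteamine dioxygenase and is the gene next to Egr2 in the RefSeq gene order. Ado had 11.65 and 8.59 FPKM in DKO, 8.08 and 11.97 FPKM in Tcf1 KO, and 17.59 and 13.27 FPKM in WT, so its libraries deviated within each genotype in the same direction as those of Egr2. Its change in DKO against WT, -0.56 ± 0.23 (SE), was not called (limma adjusted p = 0.0909). The next genes for Egr2 were Nrgn (0.945) and Mir1949 (0.889). Nr4a3 was closest to Anp32b (0.998), Hist1h2ag (0.997) and Clspn (0.996), and Nr4a1 to Kcnmb4 (0.993), Orc1 (0.990) and Cks2 (0.990). Nr4a2 was closest to Bcl7c (0.991), Chchd10 (0.991) and Ikzf4 (0.989). Egr1 was closest to Hist1h2ap (0.976), Orc1 (0.968) and Fancd2 (0.963), and Egr3 to Mir7059 (0.983), Extl2 (0.966) and Blm (0.962). Among the 6 genes themselves, the highest correlations were those of Nr4a2 with Nr4a3 and of Egr1 with Nr4a1 (0.969 each), and the lowest was that of Egr2 with Egr3 (0.107).

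Of 21 genes that encode upstream regulators of the Egr and Nr4a genes, 20 were tested, of which 8 rose and 0 fell in DKO against WT, with a median change of 0.20. Of all tested genes 21.7% rose. With no filter on low values or with quantile scaling, 1 of them fell. Nfatc3, a calcineurin-dependent factor, had 59.14 and 57.33 FPKM in DKO, 41.84 and 42.15 FPKM in Tcf1 KO, and 42.82 and 43.77 FPKM in WT (0.42 ± 0.04, limma adjusted p = 0.00101). Mef2a, which encodes a MEF2 factor, rose by 0.51 ± 0.08 (adjusted p = 0.00343). Camk4, a calcium-dependent kinase that acts on CREB, rose by 0.46 ± 0.06 (adjusted p = 0.00259), and Crebbp, the CREB binding acetyltransferase, by 0.43 ± 0.05 (adjusted p = 0.00172). These RNA levels do not measure the activity of kinases or factors that are controlled after translation. Of the 20, 0 were called in Tcf1 KO against WT. In DKO against Tcf1 KO 7 rose and 1 fell, where 2599 of all 6761 tested genes were called in either direction. Without Tcf1 KO replicate 1 or Tcf1 KO replicate 2, 4 rose there. The 1 that fell was Map2k1, a MAP kinase kinase (-0.18 ± 0.06, limma adjusted p = 0.0461), a call lost without any 1 of the 6 libraries (adjusted p from 0.0515 to 0.200).

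Among 9 partners and repressors of these factors, 3 rose and 2 fell in DKO against WT, with a median change of -0.04, where 21.7% of all tested genes rose and 27.8% fell. With median scaling 3 rose and 1 fell. Nab2, the corepressor that Egr proteins both induce and bind, had the genotype order of Egr1 and Egr3. It had 39.85 and 28.44 FPKM in DKO, 58.14 and 61.79 FPKM in Tcf1 KO, and 76.64 and 78.07 FPKM in WT, with no overlap, and fell by 1.18 ± 0.15 in DKO against WT (limma adjusted p = 0.00176). Its relative Nab1, which is not an activation-induced gene, had 18.28 and 20.05 FPKM in DKO, 19.82 and 20.21 FPKM in Tcf1 KO, and 19.99 and 20.54 FPKM in WT, a change of -0.08 ± 0.06 in DKO against WT (adjusted p = 0.345). Hdac7, a histone deacetylase that represses Nr4a1 through MEF2 in thymocytes, had 203.04 and 212.48 FPKM in DKO, 184.76 and 181.25 FPKM in Tcf1 KO, and 125.11 and 134.12 FPKM in WT. Its order over the genotypes was the reverse of that of Nr4a1. The share of tested genes with that order was not counted, and any part of Hdac7 in the Nr4a1 change was not tested. In DKO against Tcf1 KO, Hdac7 changed by 0.18 ± 0.05 (limma adjusted p = 0.0420). That call was lost with only the 4 libraries compared (0.0611), no filter on low values (0.0732) or no variance trend (0.0818). In DKO against WT, Hdac7 rose by 0.68 ± 0.05 (adjusted p = 0.000369). Cabin1, a calcineurin and MEF2 inhibitor, rose by 0.47 ± 0.08 (adjusted p = 0.00475). Hdac5, another deacetylase of the same class, rose by 0.34 ± 0.07 (adjusted p = 0.0115), a call lost without WT replicate 1 (0.0719) or WT replicate 2 (0.0569). Without WT replicate 1 or WT replicate 2, 2 of the 9 rose and 1 fell.

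Known targets changed in both directions. Of 13 tested genes that Egr or Nr4a proteins are known to regulate, 6 rose and 4 fell in DKO against WT, with a median change of 0.36, where 21.7% of all tested genes rose and 27.8% fell. Nab2 is 1 of the 4 that fell. Quantile scaling gave 9 rising targets, and 8 rose without DKO replicate 2 and 5 without WT replicate 2. Ikzf2, which encodes Helios and is induced by strong receptor signals, had 5.43 and 5.3 FPKM in DKO, 16.53 and 14.38 FPKM in Tcf1 KO, and 24.25 and 22.36 FPKM in WT, and fell by 1.93 ± 0.09 in DKO against WT (limma adjusted p = 0.000105). Id2, an inhibitor of E proteins, had 19.4 and 11.1 FPKM in DKO, 37.3 and 57.82 FPKM in Tcf1 KO, and 70.06 and 69.68 FPKM in WT, and fell by 2.17 ± 0.29 (adjusted p = 0.00221). Other targets rose. Id3, the Egr-induced inhibitor of E proteins, had 533.44 and 404.5 FPKM in DKO, 190.53 and 200.08 FPKM in Tcf1 KO, and 155.39 and 187.22 FPKM in WT, and rose by 1.44 ± 0.15 (adjusted p = 0.000897). Fasl, the death ligand induced by Egr2 and Egr3, had 39.55 and 41.4 FPKM in DKO, 18.62 and 18.79 FPKM in Tcf1 KO, and 0.39 and 0.52 FPKM in WT, and rose by 4.83 ± 0.07 (adjusted p = 6.69e-06). Lag3, an inhibitory receptor, rose by 3.66 ± 0.16 (adjusted p = 0.000105), and Foxp3, the regulatory T cell factor whose gene Nr4a proteins activate, by 3.34 ± 0.34 (adjusted p = 0.00088).

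Of 11 tested transcripts whose levels are tied to T cell receptor signalling, 9 fell and 1 rose in DKO against WT, with a median change of -0.70, where 27.8% of all tested genes fell. Groups share genes: Nab2 is counted here, among the partners and among the targets, Irf4 here, among the targets and among the immediate early genes, and Cd69 here and among the immediate early genes. Cd5, a surface receptor whose level is set by the strength of self-recognition, had 78.85 and 84.92 FPKM in DKO, 90.2 and 95.24 FPKM in Tcf1 KO, and 107.47 and 125.99 FPKM in WT, and fell by 0.50 ± 0.09 (limma adjusted p = 0.00552). Cd69, whose protein was used to exclude cells in the sort, had 27.22 and 27.11 FPKM in DKO, 33.22 and 31.63 FPKM in Tcf1 KO, and 39.41 and 35.96 FPKM in WT, and fell by 0.46 ± 0.06 (adjusted p = 0.0023). The largest falls in the group were those of Folr4 (-4.42 ± 0.11, adjusted p = 2.57e-05), Ly6c2 (-2.94 ± 0.16, adjusted p = 0.000157), Gpr83 (-2.86 ± 0.17, adjusted p = 0.000186) and Cd200 (-1.35 ± 0.10, adjusted p = 0.000366). Ly6c1 was the 1 gene that rose (0.83 ± 0.25, adjusted p = 0.0389), a call lost without DKO replicate 1 (0.48, 0.101), either Tcf1 KO library (0.0637 each), WT replicate 1 (0.178) or WT replicate 2 (0.0672). Ly6C protein, unlike CD5, is known to be lower on T cells with stronger self-recognition, so the Ly6c genes are read in the opposite direction from the others. Ly6c1 and Ly6c2 are near-identical genes among which reads may be divided, so both values are uncertain. Irf4 was not called (0.36 ± 0.18, adjusted p = 0.147), and without DKO replicate 1 it was higher (0.60, 0.0209). Of the 11, 3 fell in Tcf1 KO against WT, where 0.754% of all tested genes fell. In DKO against Tcf1 KO 7 of them fell, where 22.6% of all tested genes did. The first count was 1 without Tcf1 KO replicate 2 or WT replicate 1, and the second was 4 without Tcf1 KO replicate 2.

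**Figure D4:**
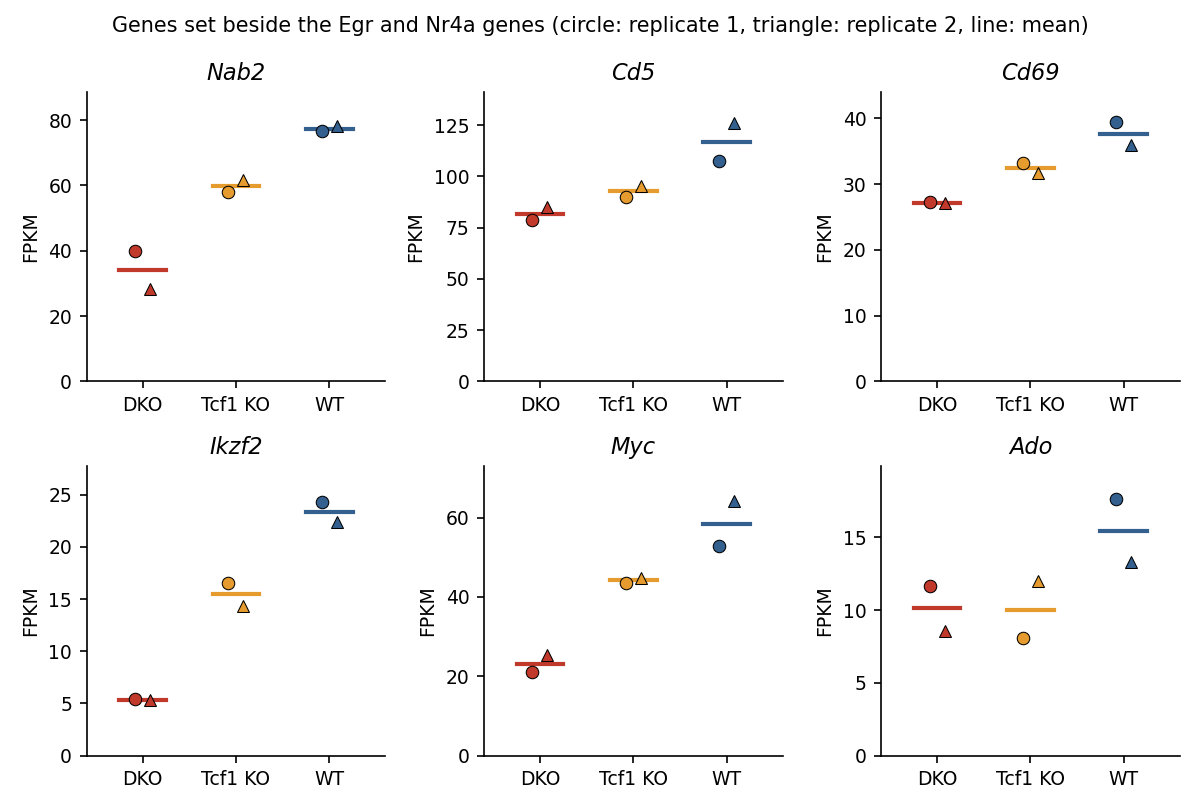
FPKM of Nab2, Cd5, Cd69, Ikzf2, Myc and Ado in the DKO, Tcf1 KO and WT libraries, 1 panel per gene with its own axis from 0; circles are replicate 1, triangles replicate 2 and lines the group means. All but Ado lie in the order DKO below Tcf1 KO below WT in every library, and Ado, the neighbour of Egr2, repeats the overlap seen for Egr2. That order was held by 18.2% of all tested genes. Cd5, Cd69 and Ikzf2 were named after their values were seen. Other genes of the same groups, such as Id3, Fasl and Ier3, rose in DKO against WT and are not shown.

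Of 33 other immediate early genes 28 were tested, of which 8 fell and 6 rose in DKO against WT, with a median change of 0.13. Over all tested genes 27.8% fell and 21.7% rose, so these counts are close to the background. With median scaling 8 rose and 6 fell, and with quantile scaling 9 rose and 6 fell. Fos, the partner of Jun in AP-1, had 3.9 and 6.56 FPKM in DKO, 3.81 and 5.38 FPKM in Tcf1 KO, and 4.17 and 6.98 FPKM in WT. The 3 groups overlapped fully, and its change of -0.08 ± 0.30 was not called (limma adjusted p = 0.849), with a sign that turned without DKO replicate 1, without WT replicate 2 and with quantile scaling. Myc, the growth regulator, had 21.02 and 25.42 FPKM in DKO, 43.59 and 44.77 FPKM in Tcf1 KO, and 52.75 and 64.16 FPKM in WT, and fell by 1.29 ± 0.12 (adjusted p = 0.000653). Ier3, an early response gene, had 12.84 and 14.27 FPKM in DKO, 0.87 and 1.06 FPKM in Tcf1 KO, and 1 and 0.75 FPKM in WT, and rose by 2.96 ± 0.12 (adjusted p = 8.87e-05). Klf6, a zinc finger factor, rose by 1.198 ± 0.08 (adjusted p = 0.000227), and Btg2, an antiproliferative gene, by 1.197 ± 0.05 (adjusted p = 8.87e-05). Without WT replicate 2, 6 rose and 5 fell.

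**Figure D5:**
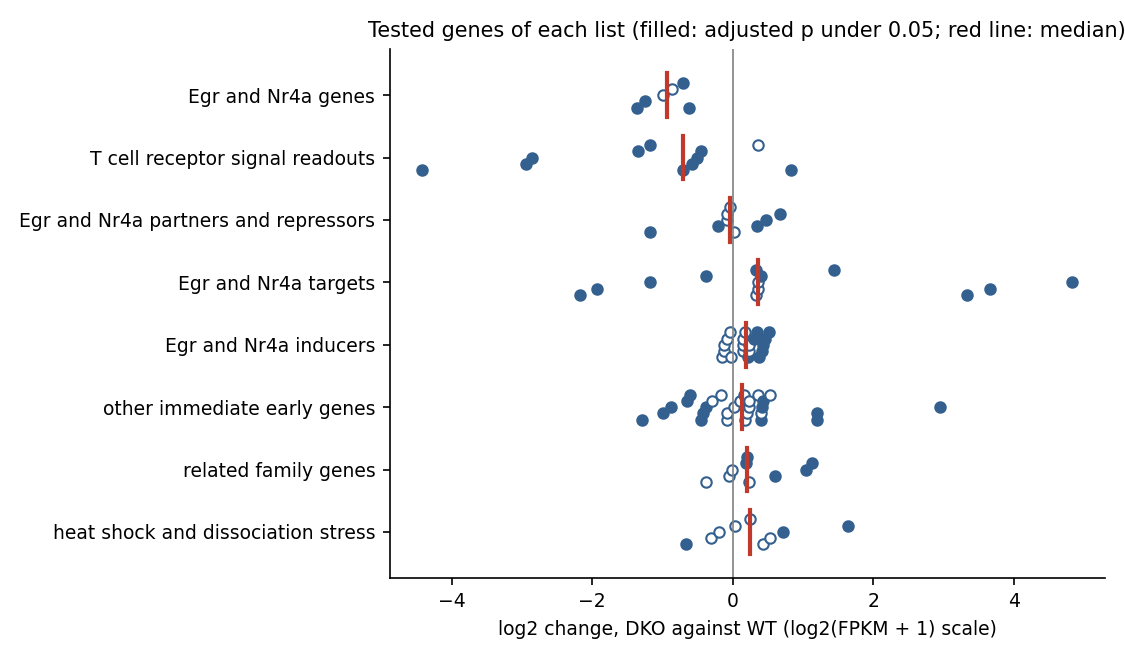
Change in DKO against WT of every tested gene of each group on the log2(FPKM + 1) scale; filled points have an adjusted p below 0.05 and red lines are medians. The Egr and Nr4a genes (median -0.93) and the receptor readouts (-0.70) lie mostly below 0, the partners around it (-0.04), and the other groups have medians above it.

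None of the tested relatives of these genes fell in DKO. Egr4, the remaining Egr gene, was at or below 0.02 FPKM in every library and was not tested. The 17 relatives listed were Egr4 and 16 nuclear receptor genes. The 9 tested were all nuclear receptor genes, of which 5 rose and 0 fell in DKO against WT, with a median change of 0.20. Of all tested genes, 21.7% rose and 27.8% fell. Nr3c1, the glucocorticoid receptor, had 31.35 and 27.1 FPKM in DKO, 20.22 and 20.68 FPKM in Tcf1 KO, and 19.22 and 18.45 FPKM in WT, and rose by 0.60 ± 0.08 (limma adjusted p = 0.00201). Nr1d1 and Nr1d2, the REV-ERB repressors of the circadian clock, rose by 1.13 ± 0.15 (adjusted p = 0.00193) and 1.04 ± 0.10 (adjusted p = 0.000662). Nr1h2, an oxysterol receptor, rose by 0.20 ± 0.05 (adjusted p = 0.0234), a call lost without DKO replicate 1 (0.0553), DKO replicate 2 (0.0657), WT replicate 1 (0.0953) or WT replicate 2 (0.115). The group's count of rising genes was 3 without DKO replicate 2, WT replicate 1 or WT replicate 2.

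Some markers of other cells differed between the genotypes as well, while the summed heat shock genes differed most between the 2 DKO libraries. The part of either in the Egr and Nr4a changes was not tested. Of all tested genes, 21.7% rose and 27.8% fell in DKO against WT. The 7 CD4 and regulatory T cell markers, of which 4 rose and 2 fell in DKO against WT, summed to between 133.2 and 178.6 FPKM in DKO, 48.9 and 60.3 FPKM in Tcf1 KO, and 50.5 and 53.9 FPKM in WT. The 9 markers of immature or gated-out cells, of which 8 were tested, 4 rose and 2 fell, summed to between 377.3 and 463.8 FPKM in DKO, 264.6 and 303.0 FPKM in Tcf1 KO, and 181.0 and 191.5 FPKM in WT. Cd4, at 128.95 and 63.72 FPKM in DKO, is counted in both of these sums. Foxp3 and Ikzf2, among the CD4 and regulatory T cell markers, are also counted among the targets above. Cd69, among the immature or gated-out markers, is also counted among the receptor readouts and the immediate early genes. The 8 NK cell markers, of which 5 were tested, 2 rose and 2 fell, summed to between 118.7 and 161.1 FPKM in DKO, 71.0 and 82.8 FPKM in Tcf1 KO, and 69.1 and 87.4 FPKM in WT. Gzma (57.26 and 106.76 FPKM in DKO, 1.41 and 2.41 FPKM in WT) and Gzmb rose. Klrd1 (22.01 and 27.12 FPKM in DKO, 59.64 and 74.51 FPKM in WT) and Eomes fell, and Ncr1 was listed at 0 in every library. B cell markers summed to at most 35.02 FPKM, with Ms4a1 at or below 0.01 FPKM. Myeloid markers summed to between 59.3 and 63.3 FPKM in DKO, 68.3 and 74.8 FPKM in Tcf1 KO, and 65.5 and 72.9 FPKM in WT, with Cd14 at 0. Stromal markers summed to at most 4.57 FPKM, with Col1a2, Col3a1 and Kdr at 0, and erythroid markers to at most 5.86 FPKM, with Hba-a2 at 0. The 12 heat shock genes, which rise during cell handling, summed to 1928 and 829.8 FPKM in DKO, 1577 and 1156 FPKM in Tcf1 KO, and 1396 and 1351 FPKM in WT. The DKO libraries were the highest and the lowest of the 6 in that sum, and of the 9 genes tested 2 rose and 1 fell in DKO against WT. Without DKO replicate 1 these counts were 2 and 4, and without DKO replicate 2 they were 6 and 0. Without any 1 of the Tcf1 KO or WT libraries they were 1 and 0. Hspa1b, an inducible HSP70 gene, had 4.21 and 1.8 FPKM in DKO, 0.25 and 0.49 FPKM in Tcf1 KO, and 0.22 FPKM in both WT libraries (1.65 ± 0.30, limma adjusted p = 0.00627).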

How the data were processed

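Gene-level FPKM values were computed by the authors and deposited in 1 table with 1 column per library. The submitters' processing notes name RSEM 1.2.21 and FastQC as tools and mm9 as the mouse build. Aligner and annotation: not given in the sources used here. The table lists 16383 genes in alphabetical order up to Pcsk5, and later genes are not analysed here. RSEM shares out reads that fit several genes. In 13 rows a date replaced the gene symbol, which was restored from the accession.

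A gene was kept when 2 or more of the 6 libraries had 1 FPKM or more (6761 kept, 9622 set aside). Log2 values with a pseudocount of 1 entered limma 3.58.1 under R 4.3.3, with a term for genotype alone and a variance trend, leaving 3 residual degrees of freedom. The Benjamini-Hochberg threshold was 0.05 over all tested genes. The fit was tested on simulated data. No count test was run, because the FPKM rest on estimated counts. Depth was read from the spacing of low FPKM of short transcripts: 69.7% to 85.0% of these values were whole fragment numbers to within 0.25, against 50% for evenly spread values, so depths are approximate. At these depths 1 FPKM on a 2 kb transcript stands for about 80.5 to 93.6 fragments.

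The 6 genes, the gene lists and the naming rule were chosen with earlier results of these data known. The rule named up to 4 called genes of each list by size of change in DKO against WT, plus Nab1, Nab2, Egr4 and Nr3c1, and the 3 closest genes by correlation. Cd5, Cd69, Cd4, Cd8a, Cd3d, Cd3e, Lef1, Map2k1, Ikzf2, Id3, Ly6c1, Irf4 and Fos were named after their values were seen. Promoter windows come from RefSeq (GRCm38.p6), a later assembly than that of the files, and hold 4 of the 6 genes. Alternatives were pseudocounts of 0.1 and 0.5, no filter and a 5 FPKM filter, median and quantile scaling, no trend, only the 4 libraries compared, a replicate block, and leaving out each library. Libraries with the same replicate number deviated together at r = 0.154 (DKO and WT), 0.0454 (Tcf1 KO and WT) and 0.147 (DKO and Tcf1 KO), and no label ties the numbers to a shared animal or day, so they were not taken as pairs.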

Additional observations from a re-analysis of the deposited data

How the results depend on the processing

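Each of the 6 genes was lower in DKO than in WT under every alternative in which it was tested, 14 for Nr4a2 and 15 for the others. Both DKO libraries lay below both WT libraries for all 6, so only median or quantile scaling could have turned a sign. Nr4a3, Nr4a1 and Egr1 were called there in 15 of 15 alternatives by limma. None of the 6 was called in Tcf1 KO against WT in any alternative. Leaving out 1 library gave 3 to 5 called genes in DKO against WT, 0 to 0 in Tcf1 KO against WT, and 1 to 3 in DKO against Tcf1 KO, where fitting only the 4 libraries compared also gave 1. Over all genes, leaving out 1 library gave 2066 to 3115 calls in DKO against WT (3345 with all libraries), 12 to 177 in Tcf1 KO against WT (141), and 1583 to 2275 in DKO against Tcf1 KO (2599). With no filter on low values the Tcf1 KO count was 39. With the replicate block, 5, 0 and 3 of the 6 genes and 3571, 151 and 2812 of all genes were called in these comparisons, Egr3 being the gene added in DKO against WT (adjusted p = 0.0489). A 5 FPKM filter added Egr2 there (adjusted p = 0.0450).

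Changes that turned sign, none of them called with all libraries, are given with their range over the fits that leave out 1 library. In DKO against Tcf1 KO, Egr2 ranged from -0.40 to 0.45 (-0.24 without Tcf1 KO replicate 1), Fos from -0.18 to 0.45, Irf4 from -0.029 to 0.46, Cd8b1 from -0.15 to 0.013 and Nab1 from -0.12 to 0.00246. In Tcf1 KO against WT, Fos ranged from -0.53 to 0.0996, Ier3 from -0.027 to 0.17, Lef1 from -0.027 to 0.14, Ccr7 from -0.11 to 0.048, Map2k1 from -0.025 to 0.089 and Nab1 from -0.036 to 0.00166. Fos in DKO against WT ranged from -0.39 to 0.24. With quantile scaling Fos was 0.066 in DKO against WT and Hspa1b -0.044 in Tcf1 KO against WT. The cause was not tested. With 2 libraries a genotype, a call that misses the threshold does not show that a gene was equal between genotypes. Nr4a2 had the lowest level of the 6, near 1 FPKM. On the log2(FPKM + 1) scale the largest SE of the 6 were those of Egr2 (0.33) and Egr3 (0.34), against 0.15 for Nr4a2. That scale also narrows the spread of low values, and the DKO libraries of Nr4a2 were at 0.36 and 0.76 FPKM.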
